A study of Mus musculus with 5 samples.

Results

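The comparison described here set thymic cells cultured with dexamethasone against thymic cells cultured with the ethanol vehicle, and covered 2 of the 5 Affymetrix arrays of the series. It was made across genes: each of 19764 gene symbols was represented by its brightest probe set, and the 9882 genes with a mean log2 level over the 5 arrays of at least 5.28, the median gene, were kept. The dexamethasone culture was a thymic cell suspension pooled from 3 CD-1 mice, kept for 4 h at a dexamethasone concentration that the labels write as 10e-7 M. The ethanol culture was a suspension from 3 such mice kept for 4 h in 0.1% ethanol. All mice were males of this outbred stock and between 4 and 6 weeks of age. The labels do not say whether both cultures were drawn from one pool of cells. Values from 3 further arrays are set beside them: pooled thymic cells of 3 mice taken 4 h after an intraperitoneal injection of 0.2 mg dexamethasone per mouse, of 3 mice taken 4 h after an injection of phosphate-buffered saline (PBS), and of 3 untreated mice. The labels name no genetic change in any of the 5 groups. Each group had 1 array, so no difference below has a spread between replicates or a p-value and precision is limited by there being 1 array a group.

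Dexamethasone is a synthetic glucocorticoid. It binds the glucocorticoid receptor, a nuclear receptor that moves into the nucleus and raises or lowers transcription of its target genes, in part through palindromic response elements in DNA. Immature thymocytes, above all those carrying both CD4 and CD8, are known to die by apoptosis when exposed to glucocorticoids, and this death needs new transcription and the Bcl-2 family proteins that act at mitochondria. A culture holds the hormone dose and the cell suspension apart from the adrenal, vascular and stromal surroundings of a living thymus.

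Values are log2 levels from robust multi-array averaging (RMA), a background correction, quantile normalization and summary of the probes of each probe set. A difference is the dexamethasone level minus the ethanol level on that scale, so 1 is a 2-fold difference, and levels of different genes are not ranked against each other. In culture 151 genes (1.53% of those kept) were at least 2-fold higher with dexamethasone and 85 genes (0.86%) were at least 2-fold lower. The median difference over all kept genes was 0.04, the middle 50% lay between -0.12 and 0.20, and 5565 genes (56.3%) were above 0. Below 0 were 4023 genes. These counts over all kept genes are the background for every list count below. The genes nearest the threshold on the high side were Nr3c1 at 1.00 inside it and Gyg at 0.99 outside it. On the low side they were Rtp4 at -1.0 inside it and AU019754 at -0.997 outside it. The counts depended on the scale: with 32 intensity units added before the logarithm they were 103 higher and 33 lower, and with all probe sets of a gene averaged they were 110 higher and 49 lower. As a yardstick between probe sets of one gene, 7165 other probe sets of 4200 genes, counting only those whose own mean level was at least 5.28, differed from the chosen one by a median of 0.17 in this same difference. Of 78 other probe sets for the higher genes 76 had the same sign, and of 54 for the lower genes 52 did, against 66.4% over all kept genes. Genes chosen for a large difference keep their sign more easily, so the 66.4% is not a matched background. At least 2-fold apart in the same direction were 48 of the 78 and 28 of the 54. Cab39l, counted as higher at 1.48, had another probe set at -1.36. Wherever other probe sets of a gene are given below, dimmer ones are left out unless they are named as such.

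**Figure D1:**
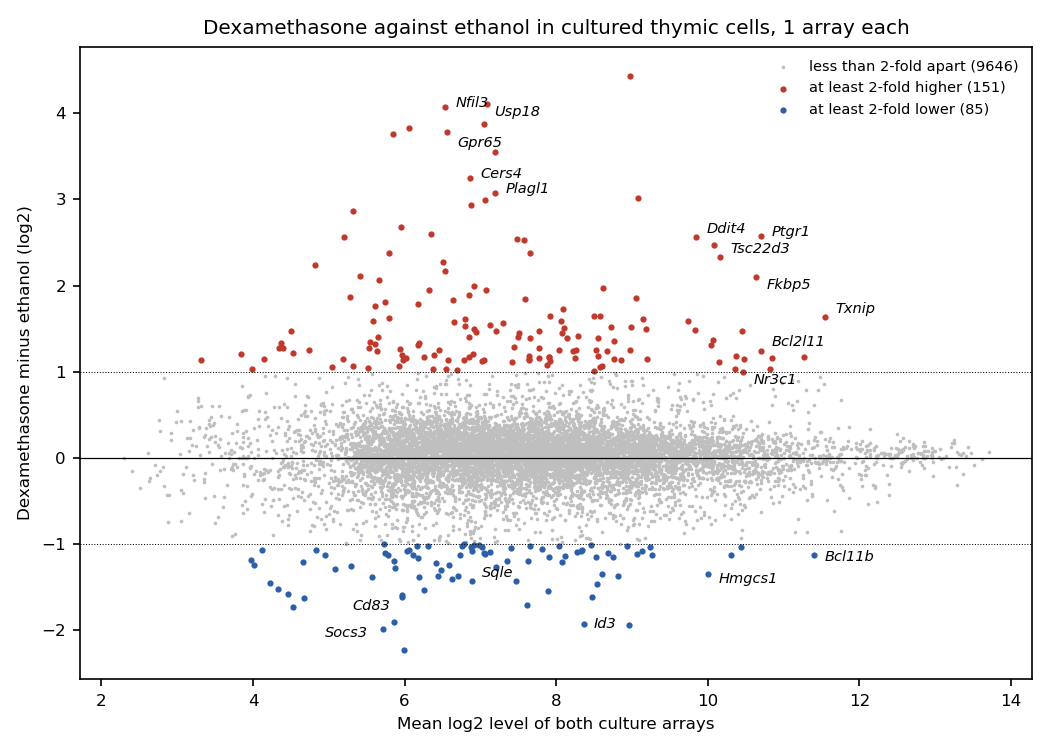
Dexamethasone minus ethanol in culture (log2, vertical axis) against the mean log2 level of both culture arrays (horizontal axis), 1 dot for each of 9882 kept genes. Red dots are the 151 genes at least 2-fold higher with dexamethasone and blue dots the 85 at least 2-fold lower; the higher genes reach a difference of 4.44 and the lower side is shallower.

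Defining genes of thymocytes were well above the array medians. Rag1, part of the recombinase that assembles T cell receptor genes, was at 12.03 with dexamethasone and 12.34 with ethanol, and Satb1, a chromatin organizer of thymocytes, was at 12.49 with dexamethasone and 12.60 with ethanol. Examples of epithelial, fibroblast and macrophage genes were lower in both cultures than in untreated thymus. Krt18, an epithelial keratin, was at 3.90 with dexamethasone and 3.79 with ethanol, below the array medians of 4.23 with dexamethasone and 4.26 with ethanol, against 10.90 in untreated thymus. Col1a1, a fibrillar collagen, was at 5.04 with dexamethasone and 3.70 with ethanol, against 6.33 in untreated thymus. Lyz2, a macrophage lysozyme, was at 8.83 with dexamethasone and 9.24 with ethanol, against 12.34 in untreated thymus. Between bulk samples, fewer cells of a type and less RNA per cell cannot be told apart.

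The receptor itself was higher with its ligand. Nr3c1, which encodes the glucocorticoid receptor, was at 10.97 with dexamethasone and 9.97 with ethanol, a difference of 1.00, and its 3 other probe sets at this level gave 1.09, 1.01 and 0.41. Ncoa2, a coactivator of nuclear receptors, was at 10.19 with dexamethasone and 9.31 with ethanol, a difference of 0.89. Hsd11b1, the enzyme that regenerates active glucocorticoid from its inert keto form, was at 6.31 with dexamethasone and 7.13 with ethanol. Of 20 receptor, chaperone and coregulator genes, all of which were kept, 1 was at least 2-fold higher and 0 were lower, with a median of 0.03, close to the 0.04 of all kept genes.

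Genes known as direct or early glucocorticoid targets were mostly higher with dexamethasone. Of 30 such genes 25 were kept, 10 of them were at least 2-fold higher, 0 were 2-fold lower, and the median difference was 0.71. Klf9, a zinc finger repressor, was at 7.65 with dexamethasone and 5.05 with ethanol, 6.08-fold higher. Tsc22d3, which encodes the anti-inflammatory leucine zipper protein GILZ, was at 11.33 with dexamethasone and 9.0 with ethanol, 5.02-fold higher. Fkbp5, a co-chaperone that dampens the receptor's own affinity for hormone, was at 11.69 with dexamethasone and 9.59 with ethanol, 4.30-fold higher. The other probe sets of these 3 genes at this level gave differences from 1.73 to 2.41, while their dimmer probe sets gave between -0.08 and 0.63.

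Brakes on growth and inflammatory signalling were among the same targets. Ddit4, also known as REDD1 and an inhibitor of the growth kinase complex mTORC1, was at 11.13 with dexamethasone and 8.56 with ethanol, 5.91-fold higher. Txnip, an inhibitor of thioredoxin and of glucose uptake, was at 12.36 with dexamethasone and 10.73 with ethanol, 3.10-fold higher. The deubiquitinase gene Tnfaip3, encoding the NF-kB brake A20, was at 10.58 with dexamethasone and 9.10 with ethanol, a difference of 1.48. Dusp1, a phosphatase that inactivates MAP kinases, was at 9.60 with dexamethasone and 8.35 with ethanol, a difference of 1.25. Zfp36l2, which promotes decay of messenger RNAs, was at 7.43 with dexamethasone and 6.26 with ethanol, a difference of 1.18. Mt1, a metal-binding metallothionein, was at 5.36 with dexamethasone and 4.12 with ethanol, a difference of 1.25. Both levels lay under the 7.59 of untreated thymus, and the ethanol level was under the array median.

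Not every classical target was higher in culture. Sgk1, a serum- and glucocorticoid-responsive kinase, differed by -0.27 in culture and by 1.54 in living mice. Errfi1, an inhibitor of the epidermal growth factor receptor, differed by -0.06 in culture and by 3.21 in living mice, and Tgm2, a transglutaminase, by -0.19 in culture. Cebpd, a bZIP factor of acute phase responses, differed by 0.71 in culture against 3.28 in living mice. For the same 25 genes the median was 0.71 in culture and 1.51 in living mice, where 17 were at least 2-fold higher. In culture 1 of the 25 genes lay under the array median with dexamethasone and 3 did with ethanol. The difference between both settings has no test.

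The proximal promoters of the higher genes seldom held a full palindromic response element. The motif, the half-site GNACA followed by any 3 bases and the half-site TGTNC, searched on both strands from 250 bases before to 50 bases after each RefSeq start site (GRCm38.p6), was found for 2 of 117 higher genes with a promoter window (1.71%) and 0 of 53 lower genes, against 22 of 7475 kept genes (0.294%) and 156 of 32851 windows in all (0.475%). The 2 higher genes were Txnip and Mt1. Their windows are shown because they hold the only such matches among the higher genes, with the match in capitals.
Txnip promoter, chr3:96557707-96558006, plus strand: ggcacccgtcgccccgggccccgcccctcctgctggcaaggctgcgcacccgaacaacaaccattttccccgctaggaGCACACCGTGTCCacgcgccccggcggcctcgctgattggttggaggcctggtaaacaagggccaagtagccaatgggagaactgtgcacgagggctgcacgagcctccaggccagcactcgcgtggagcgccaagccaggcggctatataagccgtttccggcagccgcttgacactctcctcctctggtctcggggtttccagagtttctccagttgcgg
Mt1 promoter, chr8:94178839-94179138, plus strand: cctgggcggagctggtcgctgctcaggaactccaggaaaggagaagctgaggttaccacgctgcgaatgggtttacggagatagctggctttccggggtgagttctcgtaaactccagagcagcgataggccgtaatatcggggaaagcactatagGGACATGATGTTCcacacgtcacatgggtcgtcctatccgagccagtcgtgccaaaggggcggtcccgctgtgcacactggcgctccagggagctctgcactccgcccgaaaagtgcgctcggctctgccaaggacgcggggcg
The centre of the match lay 166 bases before the start site in Txnip and 88 bases before it in Mt1. A match is a description of letters and not evidence of binding, and elements farther from a start site were outside these windows.

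Genes of apoptosis were read as 3 lists. Of 12 kept pro-apoptotic Bcl-2 family genes 3 were at least 2-fold higher and 0 lower, with a median of 0.19. Bbc3, which encodes the BH3-only killer protein Puma, was at 8.95 with dexamethasone and 7.22 with ethanol, 3.30-fold higher. Bmf, a BH3-only protein tied to the cytoskeleton in healthy cells, was at 9.32 with dexamethasone and 7.68 with ethanol, 3.12-fold higher. Bcl2l11, which encodes Bim, was at 11.33 with dexamethasone and 10.09 with ethanol, 2.37-fold higher, and its 4 other probe sets at this level gave between 1.11 and 1.85. Pmaip1, encoding Noxa, was at 6.02 with dexamethasone and 6.50 with ethanol, a difference of -0.48 against 1.27 in living mice. Bax, a pore-forming effector, was at 8.07 on both culture arrays.

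The survival side of the family was mixed. Of 5 kept anti-apoptotic members none was 2-fold apart, and their median was -0.29. Bcl2 was at 7.15 with dexamethasone and 6.24 with ethanol, a difference of 0.91, but its other probe sets gave between -0.06 and 0.66. Bcl2l1, which encodes the survival protein Bcl-xL, was at 8.54 with dexamethasone and 9.24 with ethanol, a difference of -0.70, and its other probe sets gave -1.23 and -1.07. Mcl1 was at 10.75 with dexamethasone and 10.62 with ethanol. Of 18 kept caspase and apoptosome genes 0 were 2-fold apart in either direction and the median was -0.03. Casp1, an inflammatory caspase, differed by 0.46, Fadd, a death receptor adaptor, by 0.30, and Cflar, an inhibitor of caspase-8 activation, by -0.63.

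Enzymes of ceramide metabolism held some of the largest differences of the culture. Cers4, a ceramide synthase, was at 8.49 with dexamethasone and 5.24 with ethanol, 9.49-fold higher. Acer2, a Golgi ceramidase, was at 6.98 with dexamethasone and 4.60 with ethanol, 5.19-fold higher. Sgpp1, a phosphatase of sphingosine-1-phosphate, was at 8.49 with dexamethasone and 7.36 with ethanol, a difference of 1.12. These were the 3 genes at least 2-fold higher among 19 kept members of the sphingolipid list, of which 0 were 2-fold lower and whose median was 0.14. Ugcg, which makes glucosylceramide, differed by -0.77, and Cerk, ceramide kinase, by -0.72. Cers6, another ceramide synthase, differed by -0.44, and its other probe set gave -1.38.

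Regulators of the PI3K, mTOR and FoxO axis lay on both sides. Of 19 kept genes 3 were at least 2-fold higher, 2 were lower and the median was 0.08. Besides Ddit4 and Txnip, Pik3ip1, a membrane inhibitor of PI3K, was higher, at 10.70 with dexamethasone and 9.59 with ethanol. Pik3r3, a regulatory subunit of PI3K, was at 3.86 with dexamethasone and 5.48 with ethanol, a difference of -1.62 with the dexamethasone level under the array median. Arrdc3, an arrestin-like adaptor, was at 8.13 with dexamethasone and 9.51 with ethanol, a difference of -1.38, while its other probe set gave -0.18 and the living mice gave 1.7.

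One clock-related repressor stood far above its list. Nfil3, a bZIP repressor that opposes the PAR bZIP activators, was at 8.56 with dexamethasone and 4.49 with ethanol, 16.8-fold higher, and it differed by 3.98 in living mice. Per1, a period gene of the circadian clock and a known glucocorticoid target, was at 6.89 with dexamethasone and 6.03 with ethanol, a difference of 0.86. The 13 kept clock genes otherwise lay slightly low, with a median of -0.15 and a mean of 0.15 that Nfil3 made positive. Rora and Bhlhe40 differed by -0.69 and -0.60. Among 10 kept Kruppel-like factors 1 was at least 2-fold higher and 2 were lower, with a median of -0.15. Klf7 was at 7.80 with dexamethasone and 9.27 with ethanol, with its other probe sets between -1.77 and -1.05, and Klf15, a metabolic regulator, was at 4.30 with dexamethasone and 5.37 with ethanol. Klf15 differed by -1.07 in culture and by 1.69 in living mice.

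Genes of the double-positive thymocyte, the stage with both coreceptors, lay mostly below 0 by modest amounts. Of 21 kept genes 20 were lower with dexamethasone, 1 of them by at least 2-fold, and the median was -0.39 in culture and -0.64 in living mice. Of all 9882 kept genes 4023 were lower with dexamethasone in culture. Bcl11b, a transcription factor that holds T-lineage identity, was at 10.84 with dexamethasone and 11.97 with ethanol, a difference of -1.13, with its other probe sets between -1.15 and -0.85. Cd8a, a coreceptor chain, was at 10.88 with dexamethasone and 11.74 with ethanol, a difference of -0.86. Dntt, the polymerase that adds untemplated bases to receptor joints, differed by -0.51, Rag1 by -0.32 and Cd4 by -0.23. Rag2, the partner of Rag1, was the exception at 0.17.

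Factors that steer T-lineage choice lay the same way. Of 23 kept E protein, Id protein and T-lineage factor genes 3 were at least 2-fold lower and 0 higher, 20 were below 0, and the median was -0.39. Over all 9882 kept genes 0.86% were 2-fold lower and 4023 genes were below 0. Id3, an inhibitor of E proteins that is raised by receptor signals, was at 7.40 with dexamethasone and 9.33 with ethanol, 3.81-fold lower, and it differed by -1.79 in living mice. Ikzf2, an Ikaros family factor, was at 8.17 with dexamethasone and 9.32 with ethanol, a difference of -1.15, and Tox, needed for the CD4 lineage, was at 7.15 with dexamethasone and 8.10 with ethanol, a difference of -0.95. Ikzf1 itself lay above 0 at 0.61. Bcl11b belongs to both of these lists, so the lists are not separate evidence.

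T cell receptor signalling genes had a median of -0.00 over 24 kept members, but 3 inhibitory members were at least 2-fold higher and 0 were lower. Ptpn22, a phosphatase that restrains T cell receptor signals, was at 10.75 with dexamethasone and 9.38 with ethanol, a difference of 1.37. Cblb, a ubiquitin ligase with a restraining role, was at 9.0 with dexamethasone and 8.0 with ethanol, a difference of 1.01. Ubash3a, another suppressor of receptor signals, was at 9.11 with dexamethasone and 8.06 with ethanol, a difference of 1.05, while its other probe set gave 0.08. Core components differed little or lay lower: Cd3g by -0.44, the kinase gene Lck by -0.43, the adaptor gene Lcp2 by -0.45 and Cd5 by -0.58.

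Among genes that respond to receptor activation, 4 of 15 kept were at least 2-fold higher, against 1.53% of all kept genes, and 0 were lower. Their median was -0.13, their mean 0.15. Ctla4, an inhibitory receptor, was at 9.43 with dexamethasone and 8.29 with ethanol, both above the 5.56 of untreated thymus, and it differed by 1.13 in culture and 3.32 in living mice. Pdcd1, the inhibitory receptor PD-1, was at 7.35 with dexamethasone and 6.21 with ethanol, a difference of 1.14. Cd69, an early activation marker that also retains cells in tissue, was at 6.17 with dexamethasone and 4.89 with ethanol, a difference of 1.28. Dusp2, a nuclear MAP kinase phosphatase, was at 8.67 with dexamethasone and 7.41 with ethanol, a difference of 1.26. On the other side Dusp6, a phosphatase induced by ERK signalling, differed by -0.91 and Nr4a3, an orphan nuclear receptor, by -0.81. In the list of 19 kept mature thymocyte genes, Cd69 was the single gene at least 2-fold higher and Ikzf2 the single gene at least 2-fold lower, and Il7r, the interleukin-7 receptor chain, was at 10.68 with dexamethasone and 9.74 with ethanol.

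Feedback inhibitors of cytokine signalling lay lower. Socs3, a suppressor of signalling through gp130, was at 4.72 with dexamethasone and 6.71 with ethanol, 3.96-fold lower, and its other probe sets gave -1.99 and -1.04. In living mice it differed by -0.35. Socs2 was at 4.05 with dexamethasone and 5.27 with ethanol, a difference of -1.21, and Socs1 was at 7.73 with dexamethasone and 8.83 with ethanol, a difference of -1.10. These were the 3 genes 2-fold lower among 26 kept cytokine receptor and SOCS genes, against 0.86% of all kept genes. Of the 26, 0 were 2-fold higher, and the median was -0.04. Jak1, a kinase that these inhibitors restrain, was at 11.97 with dexamethasone and 11.11 with ethanol, a difference of 0.86, and the shared receptor chain gene Il6st differed by -0.66.

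Of 23 kept NF-kB and TNF family genes 1 was at least 2-fold higher, 3 were lower and the median was -0.13. The higher gene was Tnfaip3. Cd83, a maturation marker of dendritic cells that thymic cells also carry, was at 5.16 with dexamethasone and 6.78 with ethanol, a difference of -1.62. Nfkbiz, a nuclear cofactor of NF-kB, was at 5.24 with dexamethasone and 6.51 with ethanol, a difference of -1.27, and Traf1, an adaptor of TNF receptors, was at 4.67 with dexamethasone and 5.92 with ethanol, a difference of -1.25. The interferon response list had 2 of 24 kept genes at least 2-fold higher and 2 lower, with a median of -0.16. Usp18, which removes the ubiquitin-like protein ISG15 and blocks interferon receptor signals, was at 8.98 with dexamethasone and 5.11 with ethanol, 14.6-fold higher, while untreated thymus stood at 8.32. Ifit1 was at 3.38 with dexamethasone and 4.57 with ethanol, both far under the 8.25 of untreated thymus, and Irf8, a transcription factor of myeloid cells and of interferon responses, was at 5.49 with dexamethasone and 6.57 with ethanol. Isg15 itself differed by -0.99.

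Sterol synthesis genes lay lower together in the dexamethasone culture. Of 24 kept genes of sterol synthesis and uptake 21 were below 0, 5 were at least 2-fold lower, 0 were 2-fold higher and the median was -0.55, against 0.04 over all kept genes and 0.86% of kept genes 2-fold lower. Of all 9882 kept genes 4023 were below 0. Hmgcs1, the synthase that feeds the mevalonate pathway, was at 9.33 with dexamethasone and 10.68 with ethanol, a difference of -1.35, with its other probe sets at this level between -1.30 and -1.11 and a dimmer one at -1.54. Msmo1, a sterol C4 demethylase, was at 6.56 with dexamethasone and 7.84 with ethanol, a difference of -1.27. Sqle, squalene epoxidase, was at 7.03 with dexamethasone and 8.23 with ethanol, a difference of -1.2. The demethylase gene Cyp51 was at 6.50 with dexamethasone and 7.54 with ethanol, a difference of -1.04. Insig1, which retains the regulatory SREBP complex in the endoplasmic reticulum, differed by -0.97, Fdps by -0.93 and the transcription factor gene Srebf2 by -0.53.

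In the median level of these genes the ethanol culture lay farther from untreated thymus than the dexamethasone culture did. It was 7.04 with dexamethasone, 7.60 with ethanol and 6.80 in untreated thymus. Hmgcs1 stood at 9.06, Msmo1 at 6.51 and Cyp51 at 6.01 in untreated thymus, each under the dexamethasone value, whereas Sqle at 7.27 was above its dexamethasone value. In all, 15 of the 24 genes were higher with dexamethasone than in untreated thymus. The contrast shares the ethanol array with any comparison of ethanol and untreated cells, so only the levels are given. In living mice the median of the list was -0.51 and Hmgcs1 differed by -0.53. Members at the other end were Pmvk at 0.23, Ebp at 0.09 and Nsdhl at 0.08.

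**Figure D2:**
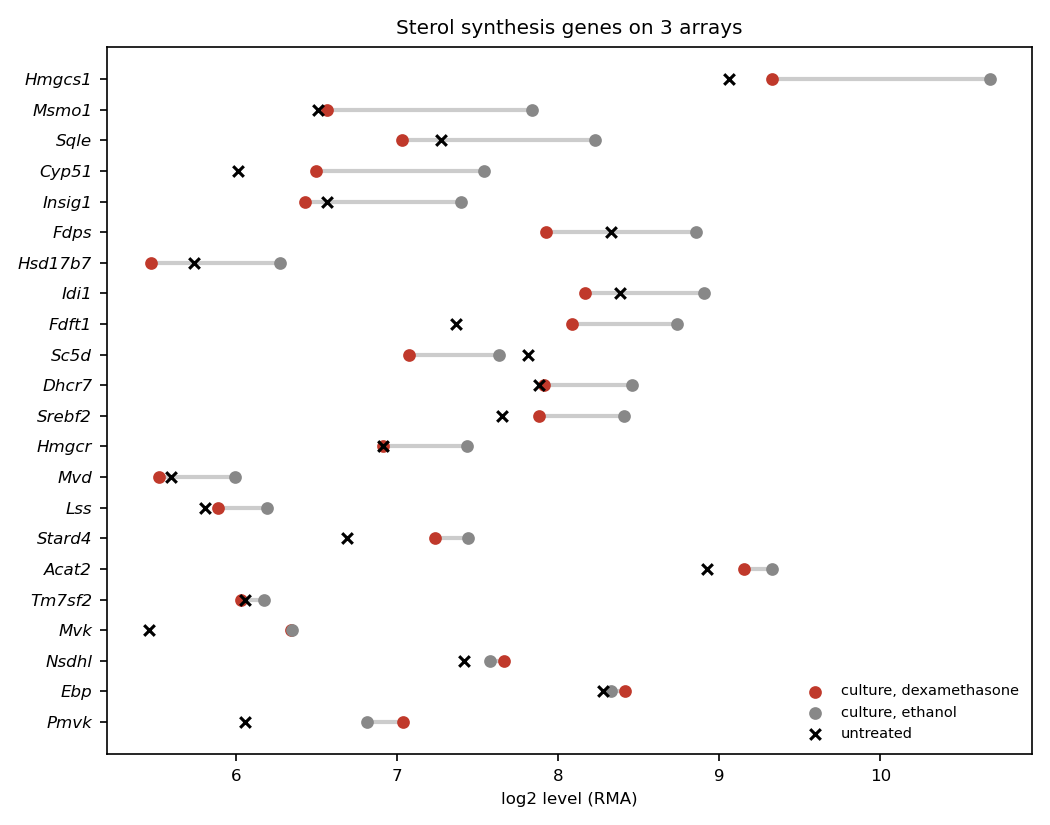
Log2 RMA level (horizontal axis) of genes of sterol synthesis, 1 row per gene, on the dexamethasone culture (red), ethanol culture (grey) and untreated (cross) arrays, ordered by dexamethasone minus ethanol with the lowest at the top. For Hmgcs1, Msmo1, Sqle and Cyp51 the dexamethasone dot lies more than 1 log2 unit to the left of the ethanol dot.

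Sterol genes are classically driven by SREBP factors bound to sterol response elements close to the start site. The motif TCACNCCAC, searched on both strands in the same windows, was found for 1 of 17 list genes with a window (5.88%), for 2 of 53 lower genes (3.77%) and for 0 of 117 higher genes, against 102 of 7475 kept genes (1.36%) and 408 of 32851 windows (1.24%). The lower genes with the match were Hmgcs1 and Malat1. The window of Hmgcs1 is shown, since it combines the match with one of the larger differences of the list, and the match is in capitals.
Hmgcs1 promoter, chr13:119690101-119690400, plus strand: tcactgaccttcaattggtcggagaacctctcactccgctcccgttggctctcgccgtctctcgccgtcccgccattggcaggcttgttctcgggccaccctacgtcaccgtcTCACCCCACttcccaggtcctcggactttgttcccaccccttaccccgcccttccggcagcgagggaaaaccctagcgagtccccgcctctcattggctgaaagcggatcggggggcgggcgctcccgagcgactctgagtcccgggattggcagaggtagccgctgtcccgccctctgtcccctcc
The centre of the match lay 133 bases before the start site. None of the printed windows held both motifs.

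Other metabolic lists lay near the background. Of 15 kept fatty acid synthesis genes 0 were 2-fold apart, with a median of -0.04; Elovl5, an elongase of polyunsaturated fatty acids, differed by 0.79 and Elovl6, an elongase of saturated ones, by -0.72. Glycolysis and pyruvate genes had a median of 0.07 over 23 kept, with 0 higher and 1 lower: Slc16a1, a lactate carrier, at 9.74 with dexamethasone and 10.87 with ethanol. Of 21 kept genes of the amino acid and endoplasmic reticulum stress response 1 was at least 2-fold higher, Herpud1, a protein of endoplasmic reticulum degradation, at 10.53 with dexamethasone and 8.94 with ethanol. Its other probe set gave 1.58, beside 1.59 for the chosen one.

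Proliferation genes differed by small amounts. Of 29 DNA replication genes, all kept, 25 were above 0, against 56.3% of all kept genes. Of the 29, 0 were 2-fold apart, and the median was 0.21 in culture, against -0.45 in living mice. The DNA replication genes with the highest differences were Cdc45, a helicase component, at 0.86, whose other probe set gave -0.03, and Rfc4, a clamp loader subunit, at 0.59. The 24 mitosis genes had 0 genes 2-fold apart and a median of 0.09, and the 17 kept Myc and ribosome biogenesis genes had 0 and a median of 0.15. Ccnd3, a D-type cyclin needed for thymocyte expansion, was at 9.92 with dexamethasone and 10.96 with ethanol, a difference of -1.03 that its other probe sets gave as -0.83 and -0.02. It was the single gene 2-fold lower among 21 kept G1 cyclin, inhibitor and E2F genes, of which 0 were 2-fold higher. The 35 cytoplasmic ribosomal protein genes stayed between -0.02 and 0.23, with a median of 0.07.

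Immediate-early and heat shock genes are a sign of handling and stress in isolated cells. Of 14 kept genes 0 were 2-fold apart in culture and the median was -0.00, whereas in living mice the median was 0.60 and 6 were at least 2-fold higher. The median level of the list was highest in untreated thymus, at 9.56. It was 9.16 with dexamethasone and 8.31 with PBS in living mice, and 7.43 with dexamethasone and 7.44 with ethanol in culture. Fos was at 6.47 with dexamethasone and 6.21 with ethanol in culture, a difference of 0.25, against 4.26 in living mice. Jun, its AP-1 partner, differed by 0.63 in culture and 3.17 in living mice, and Atf3, a stress-induced bZIP factor, by -0.24 in culture and 3.52 in living mice. In culture Atf3 was at 4.69 with dexamethasone and 4.93 with ethanol, not far above the array medians of 4.23 and 4.26.

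The list of G protein-coupled receptors and regulators of G protein signalling (RGS) had 3 genes at least 2-fold higher and 1 lower among 24 kept. Its median was 0.13. Gpr65, an acid-sensing receptor first found in dying T cells, was at 8.45 with dexamethasone and 4.66 with ethanol, 13.8-fold higher. P2ry14, a receptor for nucleotide sugars, was at 6.50 with dexamethasone and 4.73 with ethanol, a difference of 1.76, and Gpr171 was at 9.94 with dexamethasone and 8.44 with ethanol, a difference of 1.5. Cxcr6, a chemokine receptor, was at 4.87 with dexamethasone and 6.26 with ethanol, a difference of -1.38.

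**Figure D3:**
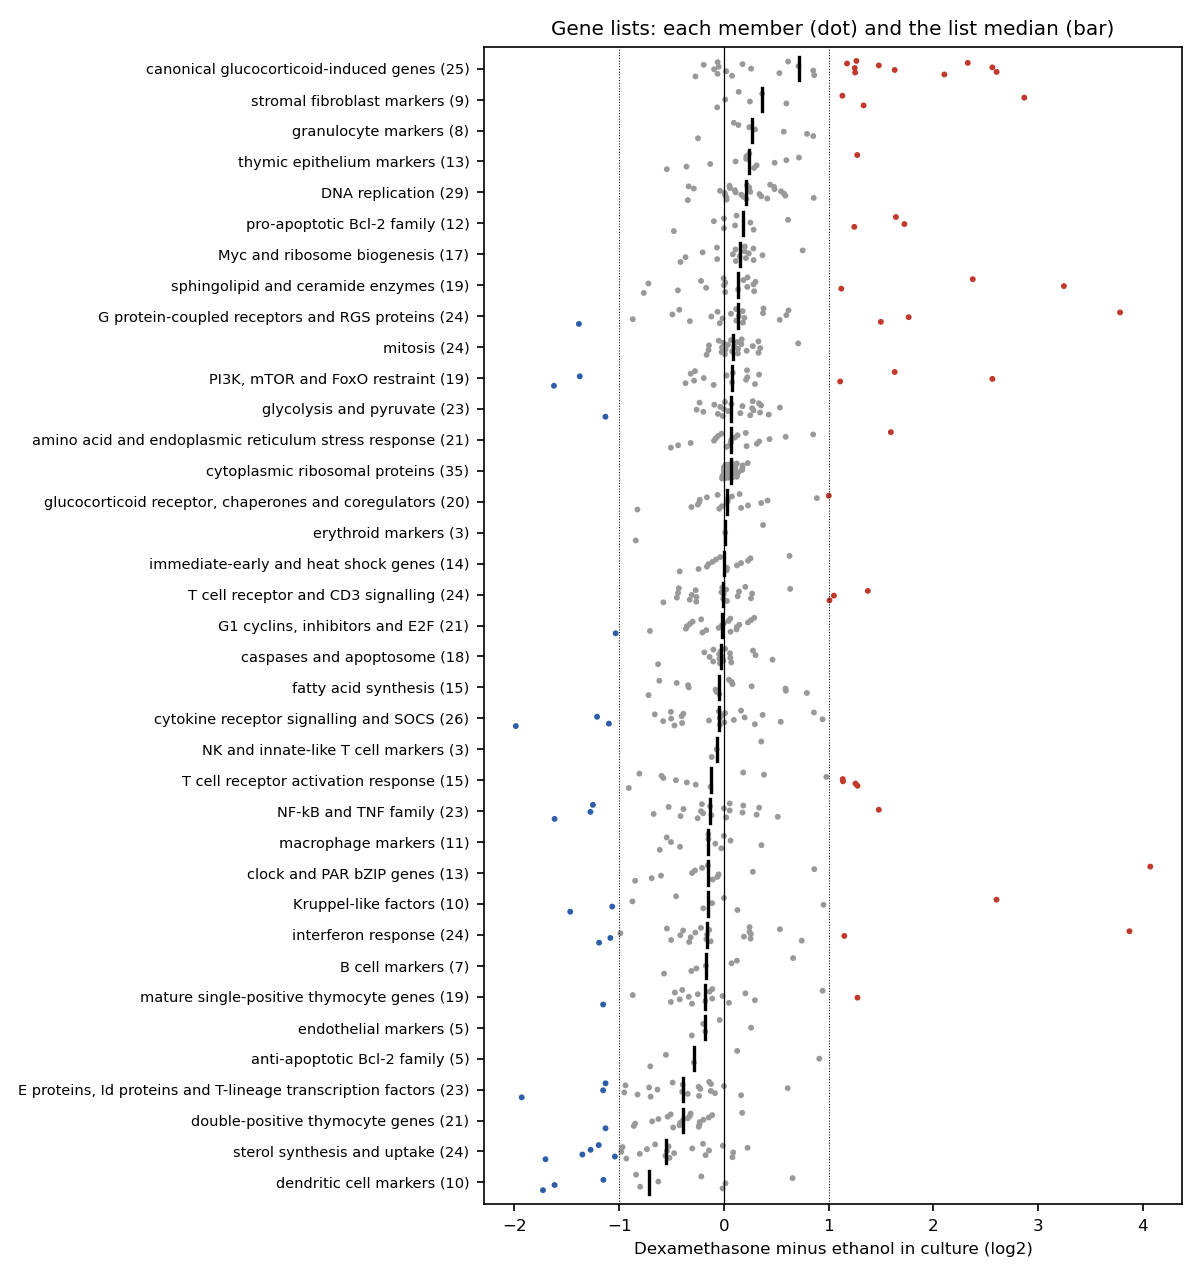
Dexamethasone minus ethanol in culture (log2, horizontal axis) for the kept members of 37 gene lists, 1 dot per gene, with the list median as a bar and the number of kept members in brackets. Red and blue dots are genes at least 2-fold higher and lower; canonical targets have the highest median, 0.71, and dendritic cell markers the lowest, -0.71.

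Markers of other cell types were measured beside these lists. Dendritic cell markers had 3 of 10 kept genes at least 2-fold lower, 0 higher and a median of -0.71, and their summed level was 11.29 with dexamethasone, 11.79 with ethanol and 13.33 in untreated thymus on the log2 scale. Of the 17 markers of this list 7 were not kept, among them Itgax, Zbtb46, Xcr1 and Clec9a. Many of the kept ones were class II histocompatibility genes, so the median is not a measure of dendritic cells alone. The 3 genes were Clec7a, the beta-glucan receptor Dectin-1, Cd83 and H2-Ab1, a class II histocompatibility chain at 7.33 with dexamethasone and 8.48 with ethanol. H2-Aa, H2-Eb1 and Cd74 differed by -0.84, -0.80 and -0.63, and H2-DMa by 0.65. The part of this cell type in the lower Cd83, Clec7a and Irf8 values was not tested. Macrophage markers had 0 of 11 kept genes 2-fold apart and a median of -0.15. Their summed level was 10.16 with dexamethasone and 10.35 with ethanol, against 13.35 in untreated thymus. With dexamethasone 5 and with ethanol 4 of these 11 markers lay under the array median, where small differences are hard to read.

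Stromal markers lay the other way, on low levels. Of 9 kept fibroblast markers 3 were at least 2-fold higher and 0 lower, with a median of 0.37; these were Pdgfrb, Col1a1 and Mgp, the last a matrix protein at 3.88 with dexamethasone and 2.75 with ethanol. Their summed level was 11.81 with dexamethasone and 11.74 with ethanol, a sum that includes Thy1, also a T cell gene, at 11.71 with dexamethasone and 11.69 with ethanol. With dexamethasone 4 and with ethanol 6 of these 9 markers lay under the array median. Of 13 kept epithelial markers 1 was at least 2-fold higher, Ccl21a, a chemokine of the medulla, at 5.04 with dexamethasone and 3.76 with ethanol, and the summed level of the list was 8.78 with dexamethasone and 8.59 with ethanol against 14.04 in untreated thymus. The part of stromal cells in the higher Pdgfrb, Col1a1 and Mgp values was not tested.

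None of the kept B cell (7), endothelial (5), erythroid (3), granulocyte (8) or natural killer and innate-like T cell (3) markers was 2-fold apart. Their medians were -0.17, -0.18, 0.01, 0.27 and -0.07. The summed level of the granulocyte list was 11.83 with dexamethasone, 11.59 with ethanol and 11.70 in untreated thymus. Granulocyte genes with the highest differences were Lcn2, a siderophore-binding protein that is also a known glucocorticoid target, at 0.85, and Mpo, myeloperoxidase, at 0.79.

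At the top of the whole ranking stood 15 genes between 2.68 and 4.44. The symbol MGC58382 was at 11.19 with dexamethasone and 6.75 with ethanol, 21.7-fold higher. Dleu7, named for a region deleted in lymphocytic leukaemia, was at 9.14 with dexamethasone and 5.03 with ethanol, 17.3-fold higher. Fzd5, a Wnt receptor, was at 7.73 with dexamethasone and 3.96 with ethanol, 13.6-fold higher, with the ethanol level under the array median. Nars2, which charges mitochondrial transfer RNA with asparagine, was at 8.96 with dexamethasone and 5.41 with ethanol, 11.7-fold higher, and its other probe set gave 2.15. Dipk1b was at 7.97 with dexamethasone and 4.14 with ethanol, a difference of 3.83.

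The remaining genes of that end have roles in transcription, trafficking and the cell surface. Plagl1, an imprinted zinc finger factor, was at 8.73 with dexamethasone and 5.66 with ethanol, 8.42-fold higher, while its 4 dimmer probe sets gave between 0.00 and 0.70. Ston1, an endocytic adaptor, was at 10.58 with dexamethasone and 7.57 with ethanol, 8.10-fold higher. Sytl3, a synaptotagmin-like protein of vesicle transport, was at 8.56 with dexamethasone and 5.57 with ethanol, 7.96-fold higher. Frmd4a, a scaffold of cell polarity, was at 8.34 with dexamethasone and 5.40 with ethanol, a difference of 2.93, and Plaur, the urokinase receptor, was at 7.30 with dexamethasone and 4.62 with ethanol, a difference of 2.68. Pdgfrb, the platelet-derived growth factor receptor of stromal cells, was at 6.76 with dexamethasone and 3.89 with ethanol, a difference of 2.87 that its dimmer probe set gave as 0.54.

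Where these 15 genes lay relative to untreated thymus varied. They were chosen on the dexamethasone and ethanol arrays, and that choice favours high dexamethasone and low ethanol levels. The counts here reuse both arrays and are a description only. All 15 were higher with dexamethasone than in untreated thymus. The ethanol culture lay below untreated thymus for 11 of them and above it for 4, which were MGC58382, Ston1, Sytl3 and Plaur. The 5 genes with the largest gaps below it were Usp18, Pdgfrb, Gpr65, Frmd4a and Plagl1, for which untreated thymus stood at 8.32, 6.34, 6.88, 7.37 and 7.61. Of the 15 ethanol levels 3 were under the array median, those of Dipk1b, Fzd5 and Pdgfrb.

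The low end was shallower. Tubb2a-ps2, deposited as C79445, was at 7.98 with dexamethasone and 9.93 with ethanol, a difference of -1.94; it is annotated as a tubulin pseudogene, so its probes may also measure its parent family. Scn4b, a sodium channel beta subunit, was at 4.91 with dexamethasone and 6.82 with ethanol, a difference of -1.91. Clec7a was at 3.66 with dexamethasone and 5.39 with ethanol, a difference of -1.73, with the dexamethasone level under the array median. On both culture arrays Scn4b and Clec7a lay below untreated thymus, and Tubb2a-ps2 lay above it. Rragd, a GTPase that brings mTORC1 to lysosomes, was at 5.17 with dexamethasone and 6.76 with ethanol, a difference of -1.59. Agfg2 was at 7.66 with dexamethasone and 9.28 with ethanol, a difference of -1.61, and the long non-coding RNA Mirt1 was at 7.12 with dexamethasone and 8.67 with ethanol, a difference of -1.55. Ankrd6, which acts in Wnt signalling, was at 5.49 with dexamethasone and 7.03 with ethanol, a difference of -1.53, and Sema6d, a semaphorin, was at 3.57 with dexamethasone and 5.09 with ethanol, a difference of -1.52. Tdrd5, a tudor domain protein known from germ cells, was at 3.67 with dexamethasone and 5.26 with ethanol, a difference of -1.59. Of the 15 lowest genes 4 had a dexamethasone level under the array median.

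**Figure D4:**
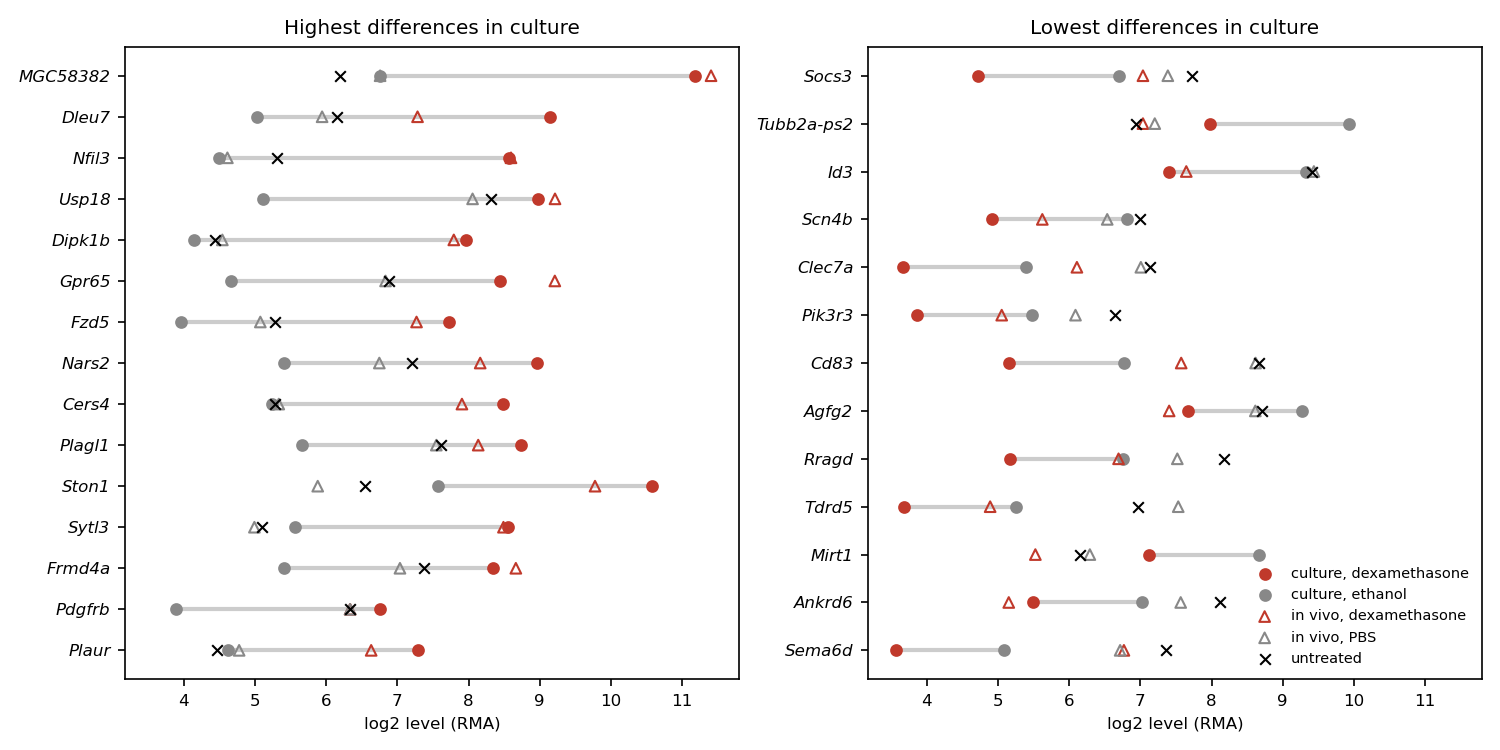
Log2 RMA levels on the 5 arrays for the genes with the highest (left) and lowest (right) dexamethasone minus ethanol difference in culture. Filled circles are the cultures, open triangles the living mice and crosses untreated thymus, with dexamethasone in red; Nfil3 has the same pattern in culture and in living mice, while both living-mouse arrays of Pdgfrb stand at 6.34.

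The living mice give a second dexamethasone contrast that shares no array with the cultures. There 268 genes (2.71%) were at least 2-fold higher than with PBS and 146 (1.48%) were lower. Of the 151 genes higher in culture 93 were also at least 2-fold higher in living mice, 61.6% of the culture list and 34.7% of the in vivo list, and 146 were above 0. Of the 85 genes lower in culture 24 were also at least 2-fold lower, 28.2% of the culture list and 16.4% of the in vivo list, and 70 were below 0. Those above 0 were 96.7% of the higher genes, against 38.8% of all kept genes. Those below 0 were 82.4% of the lower genes, against 58.6% of all kept genes. The share also at least 2-fold apart in living mice was larger among genes with larger culture differences. It was 42 of 90 genes (46.7%) with a difference from 1 to 1.5, 23 of 30 (76.7%) from 1.5 to 2 and 28 of 31 (90.3%) at 2 or above. On the lower side it was 16 of 70 genes (22.9%) down to -1.5 and 8 of 15 (53.3%) beyond it. As a measure of 2 pools without dexamethasone, PBS minus untreated gave 19 genes higher (0.192%) and 37 lower (0.374%).

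Some culture differences had no counterpart in living mice. Within 0.5 of 0 there lay 20 of the 151 higher and 22 of the 85 lower genes. Of the named genes these include Pdgfrb at 0.00, Sema6d at 0.05, Socs3 at -0.35, Tubb2a-ps2 at -0.17 and Klf7 at -0.11. Plagl1 differed by 0.59 and Dleu7 by 1.34 in living mice, against 3.07 and 4.11 in culture. The reverse also occurred, with Ctla4, Dusp1 and Mt1 at 3.32, 3.23 and 3.0 in living mice and between 1.13 and 1.25 in culture. None of these gaps between both settings was tested. The 20 and 22 genes within 0.5 of 0 have no share of all kept genes beside them and are a description only.

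**Figure D5:**
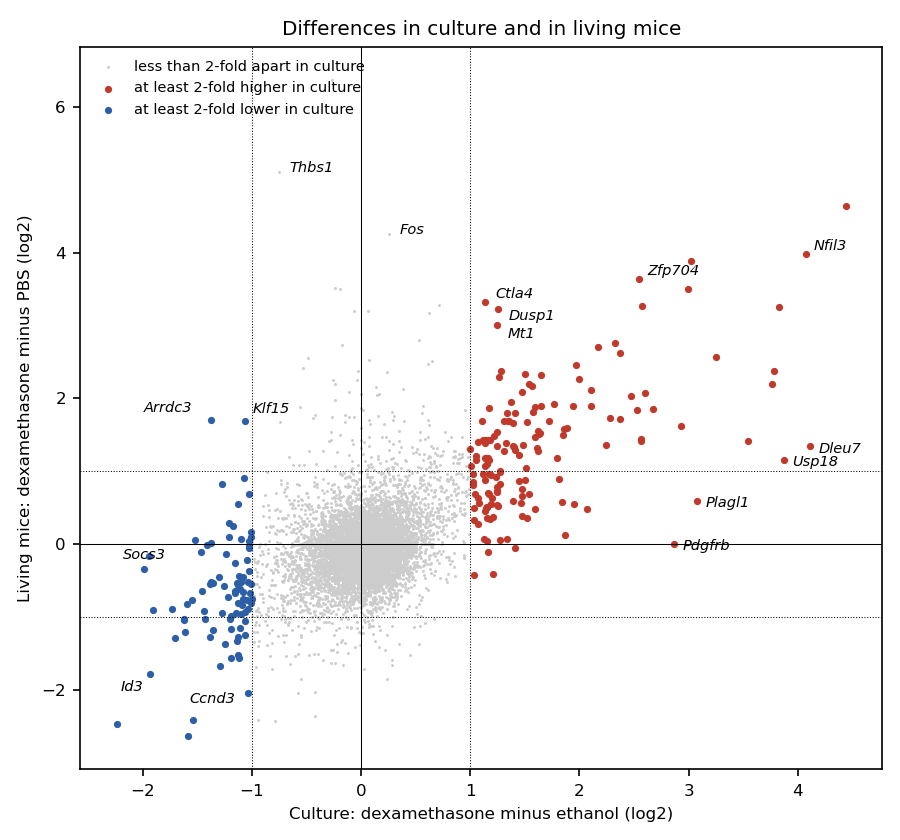
Dexamethasone minus ethanol in culture (log2, horizontal axis) against dexamethasone minus PBS in living mice (log2, vertical axis) for 9882 kept genes. Of the 151 genes at least 2-fold higher in culture (red) 146 lie above 0 on the vertical axis, and of the 85 lower (blue) 70 lie below it. Of all kept genes 38.8% lie above 0 and 58.6% below 0 on that axis.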

How the data were processed

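Total RNA of thymic cell suspensions was hybridised to Affymetrix arrays, 1 array per group and 1 pool of 3 mice per array. The authors deposited log2 expression values for 45101 probe sets and the same values as linear intensities, made with RMA per the submitters' processing notes; its version is not given in the sources used here. As a check, the log2 values equalled the log2 of the deposited intensities to within 7.11e-15, and the authors' log2 differences equalled the recomputed ones to within 1.78e-15. Array medians ran from 4.23 to 4.37 on the log2 scale, and between 41.1% and 42.6% of probe sets on an array shared a value with another. The Pearson correlation over all probe sets was 0.990 between the dexamethasone and ethanol cultures and 0.992 between PBS and untreated. No detection calls or scan dates were used, so signal over background is known only from the level.

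Symbols were updated through a RefSeq table (GRCm38.p6): 22692 probe sets already had the current symbol, 11309 were matched as synonyms, 1562 through an accession, 4760 kept the deposited symbol, 4714 had no name and 64 were controls. The probe set with the highest mean over 5 arrays stood for its gene, and 9882 of 19764 genes at or above the median mean were kept. Differences were taken in Python 3.11.15 with pandas 2.3.3 and numpy 2.4.6, and genes at least 2-fold apart were counted without a test. The counting was tested on simulated data. Named genes are the 15 highest and 15 lowest, up to 4 at each end of every list and a few set examples. Outside this rule, and chosen after their values were seen, are Cab39l, Malat1, the genes beside the 2-fold threshold, and the list members Cd4, Cd74, Cebpd, Cyp51, Dntt, Dusp1, Errfi1, Fdps, H2-Eb1, Insig1, Mt1, Rag1, Srebf2 and Zfp36l2. Members, the 37 lists (9 of them of cell type markers) and this rule were chosen with earlier results of these data known. Results on 2 of the 15 lowest genes and on a few list members are not reported here.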

Additional observations from a re-analysis of the deposited data

Results flagged for a closer look

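Arrdc3 and Klf15 lay at least 2-fold from their vehicle in opposite directions in both settings. Arrdc3 differed by -1.38 between dexamethasone and ethanol in culture and by 1.7 between dexamethasone and PBS in living mice. Klf15 differed by -1.07 in culture and by 1.69 in living mice. Arrdc3 stood at 8.13 with dexamethasone and 9.51 with ethanol in culture. In living mice it stood at 8.57 with dexamethasone and 6.87 with PBS, against 7.43 in untreated thymus. Klf15 stood at 4.30 with dexamethasone in culture, near the array median of 4.23, and at 5.37 with ethanol. Its levels were 7.47 with dexamethasone and 5.78 with PBS in living mice, and 6.45 in untreated thymus. Each value rests on 1 array per group, and the difference between both settings was not tested. The other probe set of Arrdc3 gave -0.18 in culture.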

How the results depend on the processing

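No paired analysis was possible because each group has 1 array, so that the groups share fewer than 2 replicate numbers, and leaving out a replicate would leave no group. The count of genes higher with dexamethasone in culture, 151, was 64 among genes at or above the 75th percentile of level, 432 at a 1.5-fold threshold and 54 at a 3-fold threshold. The count of lower genes, 85, was 32, 370 and 12 under those 3 settings, 33 with 32 intensity units added before the logarithm and 49 with all probe sets of a gene averaged. Among the 37 list medians, the filter at the 75th percentile gave 0.53 for canonical targets, 0.61 for pro-apoptotic genes, -0.55 for anti-apoptotic genes, 0.18 for the activation response, 0.22 for the interferon response and 0.0125 for fibroblast markers. With no level filter the anti-apoptotic median was 0 and the dendritic one -0.49, with averaged probe sets the dendritic one was -0.50, and with the added 32 units the fibroblast one was 0.15. The cause of these shifts was not tested. Of 75 named genes at least 2-fold apart, all 75 kept their direction with averaged probe sets. The added units and the subtraction of the median difference could not have reversed a direction of that size. Of the 75, 54 stayed at least 2-fold apart with the added units, 56 with averaged probe sets and 73 after subtraction of the median difference. The medians of the activation and interferon responses, -0.13 and -0.16 as reported, were the ones with the opposite sign under the 75th percentile filter among those listed here. By smaller shifts, 2 medians not listed here also changed sign under that filter. The NF-kB and TNF family median went from -0.13 to 0.04, and the cytokine receptor and SOCS median from -0.04 to 0.004. Precision is limited by the single array in each group.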

Other observations

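The genes in these paragraphs were chosen after their values were seen. They belong to no list, were not counted against a background, and lay on both sides. Ptgr1, a reductase that inactivates leukotrienes and prostaglandins, was at 11.99 with dexamethasone and 9.42 with ethanol, a difference of 2.57. Pnpla2, the triglyceride lipase of lipid droplets, was at 8.41 with dexamethasone and 7.14 with ethanol, a difference of 1.27. Agpat2, an acyltransferase of phospholipid and triglyceride synthesis, differed by 1.59, Chka, choline kinase, by 1.58, and the oxysterol-binding protein genes Osbpl1a and Osbpl3 by 1.79 and 1.31. Soat1, which esterifies cholesterol, lay on the other side at -1.02. The solute carriers Slc43a1 and Slc30a4 differed by 1.65 and 1.52, whereas Slc5a9, Slc20a1, Slc6a19 and Slc16a4 differed by -1.43, -1.09, -1.03 and -1.03.

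Gpr83, a receptor known from regulatory T cells, was at 8.84 with dexamethasone and 6.31 with ethanol, a difference of 2.52. Btla, an inhibitory receptor, was at 7.30 with dexamethasone and 5.34 with ethanol, a difference of 1.95 against 0.55 in living mice. Cd200, a ligand that restrains myeloid cells, was at 6.01 with dexamethasone and 7.39 with ethanol, a difference of -1.38 against 0.01 in living mice. The nuclear long non-coding RNAs Malat1 and Neat1 were both lower in culture, Malat1 at 7.95 with dexamethasone and 8.96 with ethanol and Neat1 at 8.51 with dexamethasone and 9.63 with ethanol, and Malat1 differed by 0.17 in living mice.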
